A study of Mus musculus with 9 samples.

Results

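Residual histone H3 lysine 4 trimethylation (H3K4me3) was compared directly between 2 mouse lines that carry different substitutions of the same PRDM9 residue. The intervals are the H3K4me3 peaks deposited for each line, 3703 in EP and 3307 in EK, which together make up 7010 of the 32986 intervals in the series' 6 peak lists. An EP and an EK peak were called shared when they overlapped by at least 1 bp, and otherwise EP-only or EK-only. The EP animals (strain C57BL/6J-Prdm9<em2Kpgn>/Kpgn) are homozygous for a change of glutamate 360 to proline, and the EK animals (C57BL/6J-Prdm9<em3Kpgn>/Kpgn) for a change of glutamate 360 to lysine. The labels call each a severe catalytic hypomorph. Both lists, like the wild-type C57BL/6J (B6) lists used here for reference, come from spermatocytes of mice 14 days old. Each mutant has 2 H3K4me3 libraries. Both EP libraries and 1 of the 2 EK libraries are re-analysed earlier data, and 1 EK library was made for this series. For H3 lysine 36 trimethylation (H3K36me3) each genotype, wild type included, has 1 library, on which its list of peaks with both marks rests. How many animals were pooled, and from how many founders each line descends, is not given in the sources used here. Cell-type markers could not be checked, because the lists hold peak positions only.

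PRDM9 is a meiotic methyltransferase whose zinc fingers bind DNA and whose PR/SET domain methylates lysines 4 and 36 of histone H3 on the flanking nucleosomes. In mice the sites it marks become the places where programmed double-strand breaks start meiotic recombination. Chromatin that carries both methyl marks is the form known at active PRDM9 sites, whereas promoters carry H3K4me3 with little H3K36me3.

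There is 1 list per genotype and no score, height or read count per peak. No value below therefore has an error between replicates, and no test between the genotypes was run. The 95% intervals (Wilson for shares, Newcombe for differences of shares, order statistics for medians) cover sampling of peaks only, and the depth behind each peak is unknown. Every list was restricted by the authors to one fixed set of known PRDM9-dependent sites, so a peak elsewhere could not enter. The EP and wild-type lists were carried over from an earlier series and the EK list was not, so the source of a list, its libraries and its genotype cannot be told apart.

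A small group of residual peaks lay over annotated gene starts, and their upstream bases are shown because base sequence was at hand only around gene starts. RefSeq starts (GRCm38.p6, the build of mm10) of 35 genes fell inside a shared EP and EK interval, 20 of them protein-coding. A further 6 genes had a start inside an EP-only peak and 3 inside an EK-only peak. Protein-coding starts lay inside 0.752% of shared EP peaks (0.487 to 1.16%), against 0.315% of all wild-type peaks. The shares were 0.287% of EP-only (0.0978 to 0.841%) and 0.152% of EK-only peaks (0.0269 to 0.857%), whose intervals include the wild-type share. The sequences are the 250 bases before the start, written 5′ to 3′ on the gene's strand, with each CG dinucleotide in capitals. The first 4 belong to the widest shared pairs over a start, ranked by the EP and EK widths together. They are the lncRNA genes Gm46165 (chr1:154103613-154103862, + strand), Gm36841 (chr5:116406430-116406679, + strand) and Gm40103 (chr3:98026109-98026358, - strand), and Nedd4 (chr9:72693048-72693297, + strand), which encodes a ubiquitin ligase. Trpv3 (chr11:73267270-73267519, + strand), a cation channel gene, lies under the widest EP-only peak over a start, and the lncRNA gene Gm52052 (chr13:78290862-78291111, + strand) under the widest such EK-only peak.
Gm46165: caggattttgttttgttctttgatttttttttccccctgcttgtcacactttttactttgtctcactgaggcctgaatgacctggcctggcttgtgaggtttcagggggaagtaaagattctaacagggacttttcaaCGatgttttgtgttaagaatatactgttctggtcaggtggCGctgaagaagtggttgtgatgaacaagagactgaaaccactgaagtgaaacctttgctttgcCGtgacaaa
Gm36841: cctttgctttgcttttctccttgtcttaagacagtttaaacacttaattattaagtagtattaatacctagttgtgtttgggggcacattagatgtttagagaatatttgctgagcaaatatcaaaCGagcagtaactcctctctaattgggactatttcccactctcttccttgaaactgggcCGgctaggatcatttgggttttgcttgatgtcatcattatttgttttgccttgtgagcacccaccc
Gm40103: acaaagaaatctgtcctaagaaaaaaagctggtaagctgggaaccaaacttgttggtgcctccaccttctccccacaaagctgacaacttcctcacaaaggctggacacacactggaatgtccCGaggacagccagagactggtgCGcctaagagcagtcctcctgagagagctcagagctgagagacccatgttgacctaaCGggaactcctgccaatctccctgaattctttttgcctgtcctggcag
Nedd4: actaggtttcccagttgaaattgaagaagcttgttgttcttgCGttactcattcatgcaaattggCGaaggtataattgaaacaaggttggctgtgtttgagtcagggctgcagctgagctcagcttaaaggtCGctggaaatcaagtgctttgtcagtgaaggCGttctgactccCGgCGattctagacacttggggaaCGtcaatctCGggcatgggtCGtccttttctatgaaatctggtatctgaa
Trpv3: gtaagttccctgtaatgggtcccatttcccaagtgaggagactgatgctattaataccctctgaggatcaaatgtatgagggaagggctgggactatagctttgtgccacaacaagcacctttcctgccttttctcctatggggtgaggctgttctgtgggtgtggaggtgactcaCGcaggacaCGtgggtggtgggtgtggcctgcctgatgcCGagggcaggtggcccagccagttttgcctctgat
Gm52052: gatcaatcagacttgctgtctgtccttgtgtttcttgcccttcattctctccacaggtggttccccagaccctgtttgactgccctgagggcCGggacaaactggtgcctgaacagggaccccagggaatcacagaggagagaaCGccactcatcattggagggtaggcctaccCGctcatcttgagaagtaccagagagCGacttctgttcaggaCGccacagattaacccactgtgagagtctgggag

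The stretches held from 2 to 9 CG dinucleotides. CG was searched as the letters CG, which read the same on both strands. Nedd4 had 9 in its 250 bases, Gm52052 had 5, Gm46165, Gm40103 and Trpv3 had 3 each, and Gm36841 had 2. Over the 35 starts in shared pairs the median was 3 (interquartile range 2 to 4.5, highest 9), over the 6 EP-only starts it was 2, and over the 3 EK-only starts it was 4. Over all 32851 upstream windows of the RefSeq table it was 6 (interquartile range 2 to 16), and 92.1% of those windows held at least 1. The peaks around the printed starts differed in how far they reached. At Nedd4 the EP, EK and wild-type intervals were all 1202 bp wide with the same borders in EP and EK. At Gm46165 the EP interval was 2200 bp, the EK interval 2283 bp and the wild-type interval 3498 bp. At Gm36841 they were 1404, 1153 and 2169 bp, and at Gm40103 1102, 1364 and 1346 bp. The Trpv3 EP-only interval was 1342 bp at a wild-type peak of 2137 bp, and the Gm52052 EK-only interval, which covered 183 of the 250 bases shown, 745 bp at a wild-type peak of 1410 bp.

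Most residual H3K4me3 sites were common to both substitutions. Of the EP peaks, 2659 (71.8%, 70.3 to 73.2%) were shared and 1044 were EP-only. Of the EK peaks, 2650 (80.1%, 78.7 to 81.5%) were shared and 657 were EK-only. Merged, both lists covered 4346 separate loci. For reference, EP peaks overlapped 19.9% of the 18427 wild-type H3K4me3 peaks and EK peaks 17.7%. The shared peaks formed 2664 pairs, 2628 of them with 1 peak on each side. In the other pairs, 5 EP peaks each overlapped 2 EK peaks and 14 EK peaks each overlapped 2 EP peaks.

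Sharing did not hinge on marginal overlaps. The smallest overlap among pairs was 14 bp, only 3 pairs overlapped by under 100 bp, and the median overlap was 618 bp. In 2658 of the 2664 pairs at least 50% of the shorter interval was covered. Just outside the rule, the closest EP-only peak lay 47 bp from an EK peak and the closest EK-only peak 29 bp from an EP peak. Within 1 kb of a peak of the other mutant lay 10 EP-only and 17 EK-only peaks. The median gap to the nearest peak of the other mutant was 205 kb for EP-only and 179 kb for EK-only peaks. In 2 wild-type peaks an EP-only and an EK-only interval both occurred without touching.

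The classes had different widths. EP-only peaks had a median width of 803 bp (780 to 827) and EK-only peaks of 588 bp (548 to 622). Among shared peaks the EP median was 646 bp (630 to 663) and the EK median 684.5 bp (669 to 702). EP-only peaks were thus wider than the shared EP peaks, and EK-only peaks narrower than the shared EK peaks. The widest intervals were nevertheless shared, the longest EP interval being 3120 bp and the longest EK interval 3196 bp, against 1649 bp among EP-only and 1261 bp among EK-only peaks. Intervals under 500 bp made up 13.9% of EP-only and 39.7% of EK-only peaks.

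**Figure D1:**
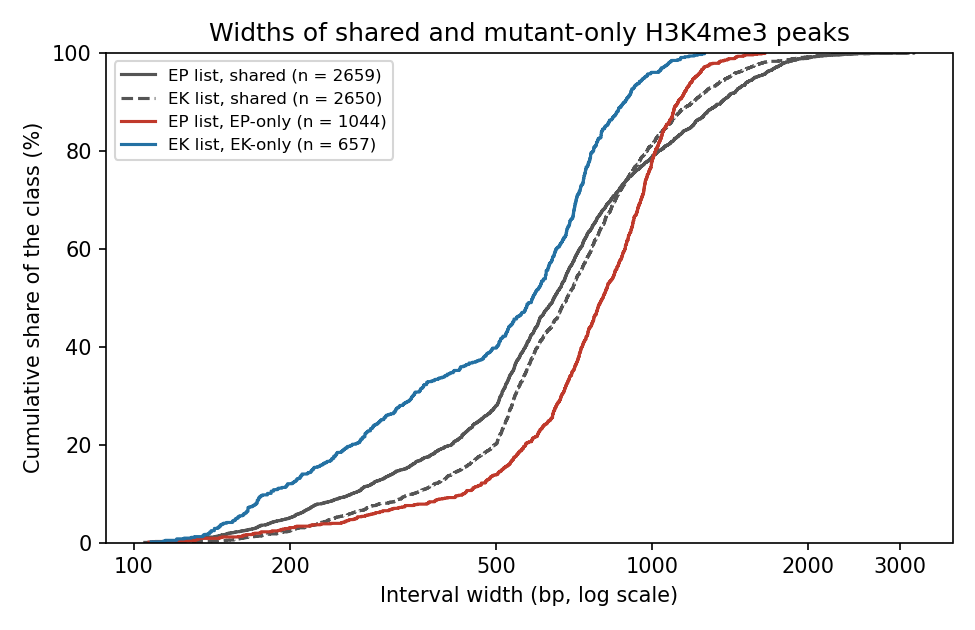
Cumulative share of peaks (percent) against interval width (bp, log scale) for shared peaks in the EP list and in the EK list, EP-only peaks and EK-only peaks. The EP-only curve lies to the right of the EK-only curve, with medians of 803 and 588 bp, and the shared curves reach the largest widths.

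The wild-type peaks beneath these classes differed more than the residual peaks themselves. EP-only peaks lay at wild-type peaks with a median width of 2012 bp (1982 to 2053, interquartile range 1579 to 2272), whereas EK-only peaks lay at wild-type peaks of 761 bp (740 to 788, interquartile range 609 to 975). For shared peaks the wild-type median was 780 bp. EP-only intervals covered a median of 0.418 times the wild-type width (0.409 to 0.426) and EK-only intervals 0.782 times (0.720 to 0.811). An EP-only peak was thus typically the middle of a broad wild-type peak, with its midpoint a median of 102 bp from the wild-type midpoint. An EK-only peak typically spanned most of a narrow one, with a median midpoint distance of 94.5 bp.

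The class of a site changed along the range of wild-type widths. Among the 1499 wild-type peaks up to 600 bp wide, 46.8% carried a shared peak, 2.40% (1.74 to 3.31%) an EP-only and 9.61% (8.22 to 11.2%) an EK-only peak. Among the 4005 peaks over 1000 and up to 1300 bp, these shares were 4.89%, 1.57% and 2.00%. Shared peaks were thus scarce in the middle of the range. EP-only peaks were least frequent, at 1.12%, over 800 and up to 1000 bp, and EK-only peaks, at 0.652%, over 1700 and up to 2200 bp. Among the 987 wild-type peaks over 2200 bp, 41.9% carried a shared peak, 33.8% (30.9 to 36.9%) an EP-only and 0.709% (0.344 to 1.46%) an EK-only peak. At the broadest sites, then, EK peaks were almost always accompanied by an EP peak, and a large share of EP peaks had no EK partner.

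**Figure D2:**
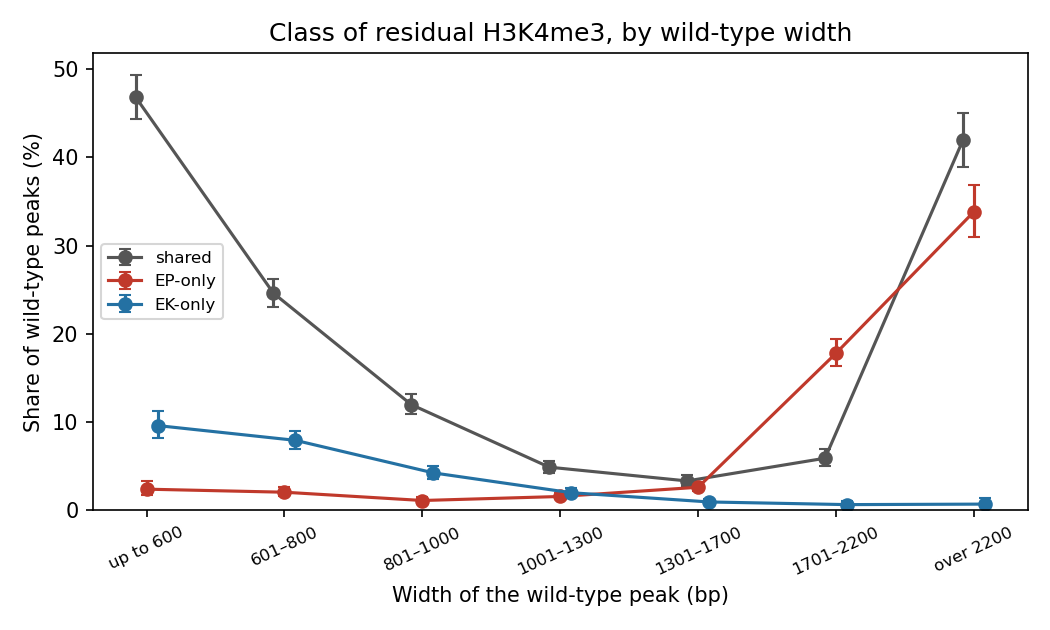
Share of wild-type H3K4me3 peaks (percent) that carried a shared, EP-only or EK-only peak, by width of the wild-type peak (bp); points are shares and bars 95% Wilson intervals over peaks. EP-only sites reach 33.8% of the broadest wild-type peaks, and EK-only sites are most frequent, at 9.61%, at the narrowest.

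At sites where both mutants kept a peak, their widths were close. The median of EP minus EK width over the 2664 pairs was 0 bp. The EK interval was wider in 1275 pairs (47.9%, 46.0 to 49.8%), the EP interval in 909 (34.1%, 32.3 to 35.9%), and 480 were of equal width. A difference of 1.5 times or more was uncommon, with EK wider by that much in 301 pairs (11.3%) and EP in 132 (4.95%). Midpoints lay a median of 31 bp apart and in 90% of pairs by no more than 133 bp. The EP interval lay inside the EK interval in 1179 pairs and the EK interval inside the EP interval in 800. In 206 pairs each interval reached past the other on one side.

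The median of 0 combined opposite differences at narrow and broad sites. At wild-type peaks over 800 and up to 1000 bp, EP intervals were 36 bp narrower than their EK partners at the median (interval of EP minus EK -51 to -23 bp, 379 pairs), and EP was the wider in 19.3% of pairs. This was the most negative median of any width range. It was -7 bp (-15 to 0) over the 705 pairs at wild-type peaks up to 600 bp and -21 bp (-33 to -10) over the 675 pairs over 600 and up to 800 bp. At wild-type peaks over 2200 bp, EP intervals were 210 bp wider (191 to 231 bp, 416 pairs), and EP was the wider in 86.5% (82.9 to 89.5%). The EP median there was 1406 bp and the EK median 1182 bp. Between them, at wild-type peaks over 1300 and up to 1700 bp, the median difference was 6.5 bp (-4 to 43) and EP was the wider in 50.8% of 126 pairs. The width of the wild-type peak thus ordered both which mutant kept a site and which had the wider interval where both did. Both describe the same lists, and neither is independent support for the other.

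**Figure D3:**
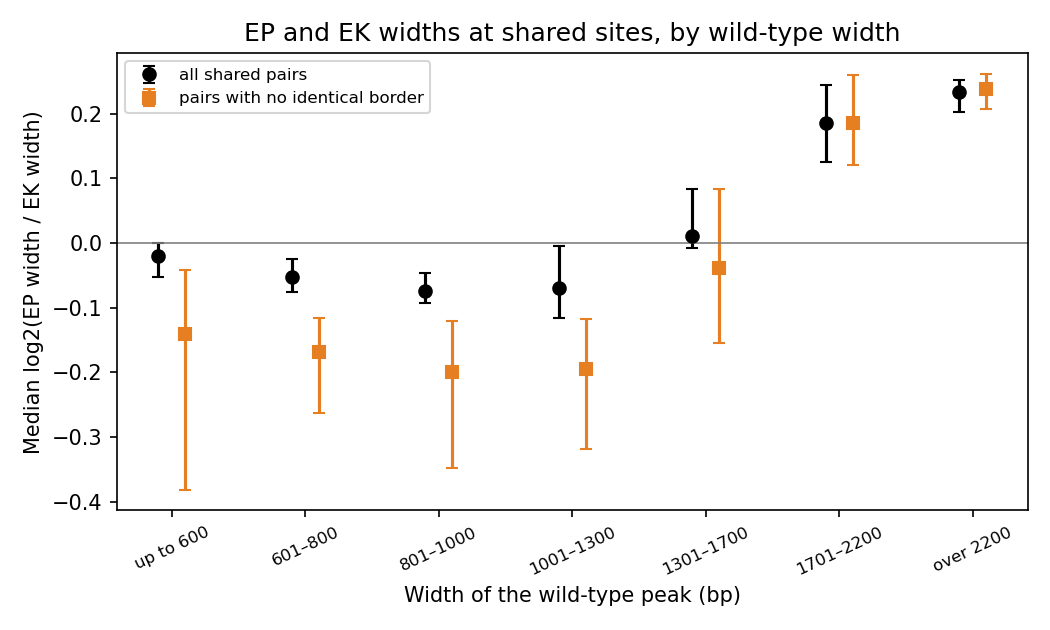
Median log2 ratio of EP to EK interval width in shared pairs, by width of the wild-type peak (bp), for all pairs and for pairs with no border identical to the base; bars are 95% order-statistic intervals over pairs. Medians lie below 0 at wild-type peaks up to 1300 bp and above 0 over 1700 bp in both sets, and between these widths at 0.01 for all pairs and -0.04 for pairs with no identical border.

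Identical borders bear on these widths. In 479 pairs both borders were the same to the base in EP and EK, and in 1449 pairs 1 border was. Compared with the wild-type interval, of 5272 borders in pairs with a wild-type peak under the EP interval, 1956 (37.1%) were at the wild-type border in both mutants. A further 357 borders were at the wild-type border in EK alone, and in all 357 the EP border lay inside it. The reverse, a border at the wild-type position in EP alone, was found 68 times, with the EK border inside in 64. In the 736 pairs with no identical border the median difference was 102.5 bp (69 to 123) in favour of EP, and EP was the wider in 63.0% and EK in 36.8%, the opposite order to that over all pairs. Those pairs lay mostly at broad sites, and their order also turned with wild-type width. At wild-type peaks over 600 and up to 800 bp EP was the wider in 2 of 57 such pairs, and over 2200 bp in 348 of 403. Over 1300 and up to 1700 bp the 40 such pairs had a median of -20.5 bp (-109 to 58), against 6.5 bp over all pairs, so neither order was settled there.

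Wild-type H3K36me3 set the classes apart. Of the wild-type peaks under EP-only peaks, 678 of 1037 (65.4%, 62.4 to 68.2%) were double-marked, that is, in the deposited list of peaks with both H3K4me3 and H3K36me3. Under EK-only peaks 67 of 638 were (10.5%, 8.35 to 13.1%), and under shared peaks 740 of 2619 (28.3%, 26.6 to 30.0%). EP-only exceeded EK-only sites by 54.9 percentage points (50.9 to 58.4). Over all wild-type peaks the share was 37.4%. Since broad wild-type peaks were more often double-marked, the classes were also set side by side at like widths. At wild-type peaks over 800 and up to 1000 bp, 12 of 35 EP-only sites (34.3%, 20.8 to 50.8%) and 6 of 133 EK-only sites (4.51%, 2.08 to 9.49%) were double-marked, against 14.0% of all wild-type peaks of that width. Over 1300 and up to 1700 bp the numbers were 76 of 99 (76.8%, 67.5 to 84.0%) and 11 of 36 (30.6%, 18.0 to 46.9%), against 64.3%. Over 1700 and up to 2200 bp they were 325 of 410 and 10 of 15 (66.7%, 41.7 to 84.8%), which overlap within their intervals, against 73.9% of all wild-type peaks of that width. EP-only and shared sites changed order along the width range. Over 600 and up to 1700 bp EP-only sites were double-marked more often than shared sites, from 14 of 56 against 58 of 670 in the narrowest of these ranges to 76 of 99 against 72 of 126 in the broadest. Up to 600 bp the shares of 16.7% (7.87 to 31.9%) and 7.55% (5.82 to 9.74%) overlap within their intervals. Over 1700 and up to 2200 bp the shares were 79.3% (75.1 to 82.9%) for EP-only and 86.8% (80.0 to 91.5%) for shared sites, also with overlapping intervals. Over 2200 bp they were 64.1% (58.8 to 69.0%) for EP-only and 80.4% (76.3 to 84.0%) for shared sites, against 67.1% of all wild-type peaks of that width. Those 2 ranges hold 410 and 334 of the EP-only sites, so the higher pooled share of EP-only than of shared sites did not hold at the widths where most EP-only sites lay.

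**Figure D4:**
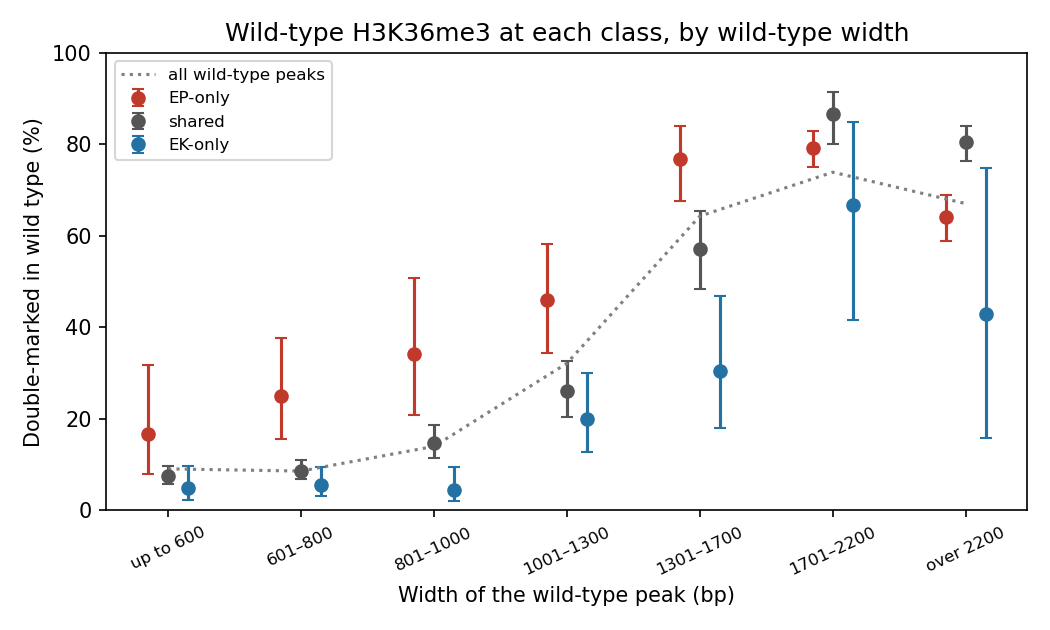
Share of wild-type sites (percent) that were double-marked in wild type, under EP-only, shared and EK-only peaks, by width of the wild-type peak (bp); bars are 95% Wilson intervals and the dotted line is the share over all wild-type peaks of that width. EP-only points lie above EK-only points in each width range, with overlapping intervals at the narrowest range and over 1700 bp, where the shared points (86.8% and 80.4%) lie above the EP-only points (79.3% and 64.1%).

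Pooled over all widths, the residual peaks' own double mark did not set EP-only peaks apart from shared EP peaks. The wild-type peaks beneath these 2 classes differed in width, with medians of 2012 and 780 bp. Their own double mark was not compared at like widths, so the pooled shares do not show whether they differed there. EP-only peaks were double-marked in EP in 117 of 1044 cases (11.2%, 9.43 to 13.3%), as often as shared EP peaks (295 of 2659, 11.1%), with a difference of 0.112 percentage points (-2.06 to 2.46). EK-only peaks were double-marked in EK in 24 of 657 cases (3.65%, 2.47 to 5.38%), less often than shared EK peaks (219 of 2650, 8.26%), with a difference of -4.61 percentage points (-6.24 to -2.62). Within pairs, those double-marked in EP alone (146 pairs) had a wider EP interval by a median of 103 bp (55 to 168). Those double-marked in both (149 pairs) had a median difference of 37 bp (0 to 97), those double-marked in EK alone (72 pairs) of 0 bp (-42 to 22), and those double-marked in neither (2297 pairs) of -2 bp (-7 to 0). These groups also differed in the width of the wild-type peak, with medians of 2128.5 bp for EP alone, 2162 bp for both, 973 bp for EK alone and 750 bp for neither, and its part was not tested.

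The wild-type double mark and the pair's width difference also went together within broad sites. At wild-type peaks at least as wide as the list's median of 1126 bp, EP intervals were wider than EK intervals by a median of 164 bp (139 to 184) at 559 double-marked sites and by 27 bp (0 to 105) at 215 sites with H3K4me3 only. At narrower wild-type peaks the medians were 0 bp (-5 to 0) over 185 double-marked sites and -25 bp (-32 to -17) over 1677 others. The wild-type widths of these groups still differed, with medians of 2310 and 1628 bp among the broad sites, and their part in the difference was not tested.

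Gene context differed modestly. Within 1 kb of a boundary of a protein-coding gene lay 5.90% of shared EP peaks (5.07 to 6.87%), 3.74% of EP-only peaks (2.74 to 5.07%) and 4.57% of EK-only peaks (3.22 to 6.44%). Over all wild-type peaks the share was 3.86%. EP-only and EK-only peaks did not differ beyond their intervals (difference -0.831 percentage points, -2.95 to 1.06). Within 5 kb the shares were 26.9%, 17.0% and 24.0%, against 15.7% of all wild-type peaks, and EP-only peaks were below EK-only peaks (difference -7.09 points, -11.1 to -3.17). Annotated starts of protein-coding genes, known for 17491 of 21896 genes, gave the same order. A start lay within 5 kb of 18.9% of shared EP, 9.77% of EP-only and 15.5% of EK-only peaks, against 8.11% of all wild-type peaks. Shared and EK-only peaks thus lay within 5 kb of a gene start more often than the wild-type list as a whole. EP-only peaks were close to that list. A start within 1 kb was rare, at 83 shared EP, 13 EP-only and 12 EK-only peaks. The shares were 3.12% (2.53 to 3.85%), 1.245% (0.729 to 2.12%) and 1.83% (1.05 to 3.17%), against 1.12% of all wild-type peaks. Only the interval of shared EP peaks lay above the wild-type share. At the 84 pairs near a start the median width difference was 0 bp, and 28 of them had equal widths.

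Gene bodies and chromosome ends did not separate EP-only from EK-only peaks beyond their intervals. Inside the span of a protein-coding gene lay 57.4% of shared EP peaks, 59.8% of EP-only peaks (56.8 to 62.7%) and 56.2% of EK-only peaks (52.3 to 59.9%), against 53.9% of all wild-type peaks (53.2 to 54.6%). In the distal 10 Mb of an autosome, the end opposite the centromere in mouse, lay 8.41%, 7.93% and 7.67% of autosomal peaks, against 7.74% of all autosomal wild-type peaks. The distal end was taken as the last base of a wild-type peak or annotated gene on the chromosome. The interval of the difference between EP-only and EK-only peaks was -1.20 to 8.42 points for gene bodies and -2.49 to 2.83 points for distal ends. Exons and introns were not separated here.

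The X chromosome held 34 of the 1044 EP-only peaks (3.26%, 2.34 to 4.52%) and 5 of the 657 EK-only peaks (0.761%, 0.325 to 1.77%), a difference of 2.50 percentage points (1.13 to 3.83). Shared peaks were X-linked in 101 of 2659 EP cases (3.80%) and in 101 of 2650 EK cases. Over all wild-type peaks the X share was 3.38%, which lies within the intervals of the EP-only and shared classes and above that of EK-only peaks. The ratio of EP-only to EK-only peaks was 6.8 on X, 1.55 over all autosomes, and from 0.98 on chromosome 8 to 2.5 on chromosome 12 among single autosomes. Peaks kept in EK alone were few on X at either wild-type width. Of the wild-type peaks below median width, EK alone kept 5 of 281 on X (1.78%, 0.762 to 4.10%) and 540 of 8910 on autosomes (6.06%, 5.58 to 6.58%), and EP alone kept 0 of 281 (Wilson upper limit 1.35%) and 150 of 8910 (1.68%). Both mutants kept 20.6% and 20.2% of them. At broader wild-type peaks EK alone kept 1 of 341 on X (0.293%, 0.0518 to 1.64%) and 86 of 8887 on autosomes (0.968%, 0.784 to 1.19%), which overlap within their intervals, and EP alone kept 34 of 341 (9.97%) and 846 of 8887 (9.52%). With only peaks at least 500 bp wide in both lists, the X share of EK-only peaks was 1.61% (0.899 to 2.85%) and that of EP-only peaks 3.14% (2.22 to 4.42%), and these intervals overlap. A peak whose partner was under 500 bp counted as mutant-only there, so those classes also hold sites called shared above. The X contrast was chosen after its values were seen.

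**Figure D5:**
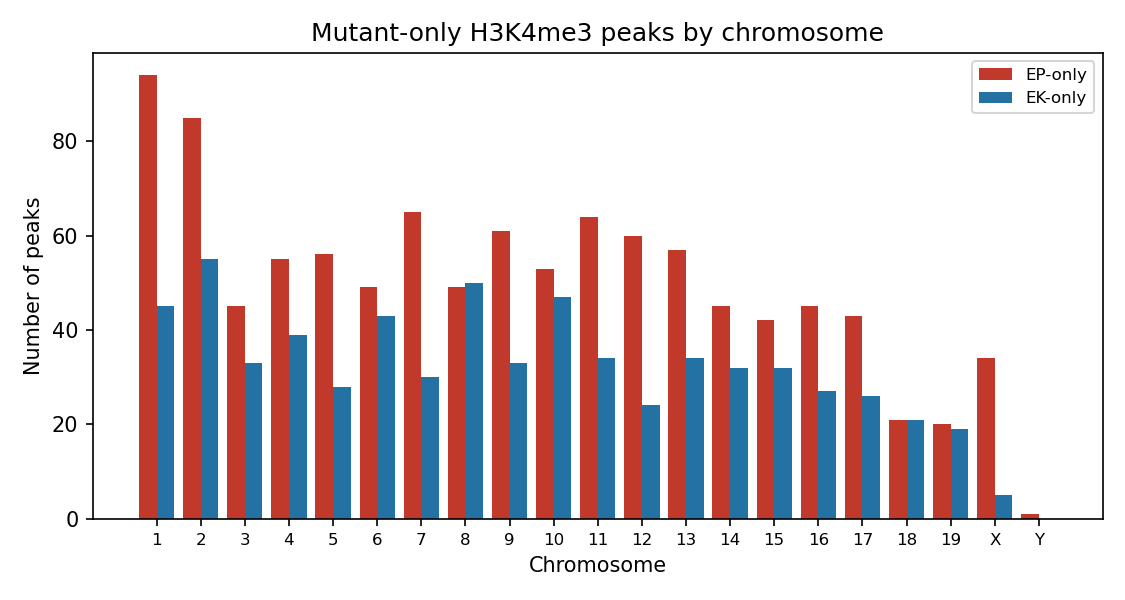
Number of EP-only and EK-only H3K4me3 peaks on each chromosome. EP-only peaks outnumber EK-only peaks on most chromosomes, are equal in number on chromosome 18 and 1 fewer on chromosome 8, and the X chromosome holds 34 against 5.

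Single sites show how these classes look on the chromosome (mm10, counted from 1). The widest shared pair lay within Trip12 (gene identifier 14897), a ubiquitin ligase gene, at chr1:84804391-84807510 in EP and chr1:84804248-84807443 in EK, 3120 and 3196 bp of a wild-type peak of 4985 bp. The next, by the EP and EK widths together, lay within Plekha5 (109135) on chromosome 6. Its widths were 2577 bp in EP, 2836 bp in EK and 3043 bp in wild type. The third lay within Dennd1a (227801), which encodes an exchange factor for a Rab protein of endocytosis, with 2887, 2430 and 3850 bp, and was double-marked in both mutants. The fourth, at chr6:145269158-145271562 in EP, was in no annotated gene, had widths of 2405, 2616 and 3626 bp and was double-marked in all 3 genotypes. Even these broadest residual peaks were shorter than the wild-type interval.

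The widest EP-only peaks filled the middle or one side of broad wild-type peaks. They lay within Tmtc1 (387314) at chr6:148308999-148310647, 1649 of 2703 bp, and within Tln1 (21894), the talin gene of integrin adhesions, at chr4:43556222-43557846, 1625 of 2083 bp. The others were at chr14:19745848-19747437 outside annotated genes, 1590 of 2204 bp, and within Cdkal1 (68916), a tRNA-modifying enzyme gene, at chr13:29781337-29782901, 1565 of 2319 bp. None of the 4 was double-marked in EP, and the last 2 were in wild type. The nearest EK peak was 25425 bp away at Tln1 and 227589 to 512000 bp away at the others.

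The widest EK-only peaks covered most of their wild-type peak. They lay within Aco1 (11428), which encodes cytosolic aconitase, at chr4:40152305-40153565, 1261 bp against 1461 bp in wild type, and over Ak6 and Taf9 (102216272 and 108143) at chr13:100653615-100654860, 1246 bp against 1543 bp. The third was within the cone phosphodiesterase gene Pde6c (110855) at chr19:38158528-38159749, where the EK and wild-type intervals were the same 1222 bp. The fourth, within Nek8 (140859), a ciliary kinase gene, at chr11:78174405-78175608, was 1204 bp wide in EK and 1125 bp in wild type. Of these the Taf9 site was double-marked in EK and in wild type. The nearest EP peak to the Aco1 site was 3092 bp away.

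Among one-to-one pairs the largest EP to EK ratio was 4.14, on chromosome 19 outside annotated genes, where an EP interval of 887 bp met an EK interval of 214 bp that reached past its end. It was followed by 4.03 on chromosome 9, where the EP interval of 778 bp equalled the wild-type interval and the EK interval was 193 bp, and by 3.11 within Sec24a (77371), a vesicle coat gene, with 600 and 193 bp. All 3 sites were double-marked in wild type. The smallest ratios were 0.203 on chromosome 3 outside annotated genes (110 bp in EP, 543 bp in EK), 0.209 within Wdr92 (103784; 108 and 516 bp) and 0.212 within Crebrf (77128; 144 and 680 bp). At Wdr92 and Crebrf the EK interval was the wild-type interval to the base, and neither site was double-marked in any genotype. Extremes were chosen by their values and are a description.

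Few shared peaks lacked a wild-type peak. There were 25 pairs with no wild-type peak under either interval, 28 with none under the EP interval, and 3 EP-only and 16 EK-only peaks without one. The EK-only peaks among them had a median width of 328.5 bp and reached 892 bp. By the EP and EK widths together, the widest pair lay within the lncRNA gene Gm32587 on chromosome 14. The EP interval there was 703 bp and the EK interval 744 bp. The second was on chromosome 5 outside annotated genes, with 674 and 754 bp. The third, at the boundary of Dmrtc1a on the X chromosome, had 684 and 705 bp. Dmrtc1a and Dmrtc1b are close copies, so reads there could be assigned to either.

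Genes that act in meiotic recombination were touched about as often as other genes. Of a list of 53 such genes, all of which matched the RefSeq table, 6 (11.3%) had an EP or EK peak in their span or within 5 kb, against 11.8% of all 21896 protein-coding genes. The share near the background is not a result about these genes, whose median span of 35.5 kb exceeded the 17.1 kb of all protein-coding genes. With a wild-type peak there were 15 of the 53 (28.3%), against 29.7% of all protein-coding genes. Among genes of double-strand break formation, Hormad1, which encodes an axis protein, had a shared peak of 219 bp in EP and 502 bp in EK, where the EK interval was the wild-type interval. Iho1, which encodes a partner of the break machinery, had 132 bp in EP, 238 bp in EK and 524 bp in wild type, all with the same left border. For strand exchange, Hsf2bp, which encodes a protein that binds BRCA2, had an EP-only peak of 1355 bp at a wild-type peak of 2617 bp, double-marked in EP but not in wild type. For the synaptonemal complex, Sycp2, a lateral element gene, had an EK-only peak of 317 bp at a wild-type peak of 1539 bp. Cdyl, which encodes a chromodomain protein reported to bind PRDM9, had an EP-only peak of 850 bp in 1 of its 4 wild-type peaks. Near Cntd1, which acts in crossover maturation, the EP, EK and wild-type intervals were the same 556 bp and double-marked in all 3 genotypes, 1660 bp outside the gene's span.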

How the data were processed

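H3K4me3 and H3K36me3 chromatin immunoprecipitation with sequencing in mouse spermatocytes was used through 6 deposited peak lists with positions only (chromosome, start and end). Per the submitters' processing notes the tools were Trimmomatic, BWA 0.7.9a and MACS 1.4, with the mm10 build; the detection threshold is not given in the sources used here. Per the description deposited with the files, the authors kept peaks at known PRDM9-dependent sites from an earlier series and took the wild-type and EP H3K4me3 lists over from it. That each list pools its libraries is inferred from there being 1 list per genotype. Widths are end minus start. Each peak was assigned the wild-type peak it overlaps most. Gene spans, and starts with 300-base sequences, came from RefSeq tables of GRCm38.p6, which shares its chromosome coordinates with mm10. Lists were compared with pandas 2.3.3 and NumPy 2.4.6 in Python 3.11.15, and intervals came from SciPy 1.17.1 and statsmodels 0.14.6. Upstream sequences of starts on chromosome 18 were not used here, nor counted among starts inside peaks. Interval operations were tested on simulated lists. Peaks are not replicates.

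Named sites were the 4 widest shared pairs, the 4 widest peaks of each mutant-only class, the 3 one-to-one pairs at each end of the width ratio, the 3 widest shared pairs without a wild-type peak, the 4 widest shared peaks over a gene start, and genes of a meiosis list with a mutant peak. Shared pairs were ranked as widest by their EP and EK widths together. The printed Trpv3 and Gm52052 starts, the ranges of wild-type width and the split by chromosome were added after the lists were seen. Members, lists and comparisons were chosen with earlier results of these data known.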

Additional observations from a re-analysis of the deposited data

How the results depend on the processing

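Of 118 values recomputed under 11 settings, 102 stayed within the interval of the value as reported (for counts, within 1.5 times) and 16 moved. With only peaks at least 500 bp wide in both lists, 64.9% of EP and 72.7% of EK peaks were shared, EP was the wider in 36.3% of pairs and in 10.9% of those at wild-type peaks below the median width, and 32.0% of wild-type sites under shared peaks were double-marked. A peak whose partner was under 500 bp counted as mutant-only in this setting, and EK-only peaks numbered 685, against 657 as reported. The X share of EK-only peaks there was 1.61%, over 1.5 times the 0.761% reported but within its interval. Among pairs with no identical border the median width difference was 102.5 bp, and EP was the wider in 63.0% of pairs, against 34.1% over all pairs, with 9.82% at narrow and 78.3% at broad wild-type peaks. The mean log2 ratio of EP to EK width was -0.0859. The near-gene shares of EP-only, EK-only and shared peaks were 17.0%, 24.0% and 26.9% with a 5 kb limit and 7.66%, 11.3% and 11.6% with genes of any biotype. Beyond the relabelling of peaks with a partner under 500 bp, the cause was not tested for these settings. Requiring 50% of the shorter interval to be covered, matching midpoints within 500 bp, merging within 500 bp, autosomes only, one-to-one pairs and the removal of peaks near gene boundaries moved no value beyond its interval. No paired analysis was possible because each genotype has a single list without columns per library, which also left no way to leave out a replicate. With no read counts, a peak absent from a list cannot be told from one below its detection threshold.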

Other observations

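Interval widths had a step at 500 bp, the width also used above as a limit. The wild-type list held 197 peaks from 450 to 499 bp and 565 from 500 to 549 bp, a ratio of 2.87. In the EK list these numbers were 114 and 336 (ratio 2.95), and in the EP list 148 and 290 (ratio 1.96). Among shared peaks the ratio was 3.13 in EK and 2.13 in EP. It was lower among EK-only peaks, at 2.1, and among EP-only peaks, at 1.34. Intervals under 500 bp made up 2.04% of the wild-type list, 24.0% of the EP list and 24.0% of the EK list.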
